A study of Mus musculus with 6 samples.

Results

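The small heat shock proteins are followed here through a transcriptome of mouse cells in which S100a8 was knocked out. The genes were chosen by symbol: Hspb1, Hspb2, Hspb3, Hspb6, Hspb7, Hspb8 and Cryab, together with Bag3, the co-chaperone that works with Hspb8. Of these 8 genes, 7 were found by symbol in the deposited table of 18051 genes. The level of Hspb3 was not analysed here. The list was drawn up with results of this same comparison in view, so the levels of its members are described without a test.

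RNA-seq was available for 3 libraries in which Cas9, delivered by lentivirus, had been directed at S100a8 (knockout) and 3 libraries of the vector (control), all from cells labelled hematopoietic stem cells. The study's text places its CRISPR experiment on S100a8 in fibroblasts from mouse embryos, to which glycyrrhizic acid, a licorice compound, had been added. The labels name neither fibroblasts nor a compound, so the cells are called by their groups and it is not known whether either group received the compound. Nothing in the labels says that replicates were separate cultures or clones, and a p-value therefore measures no more than how the libraries scattered, possibly for technical reasons.

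Small heat shock proteins are chaperones that need no ATP. They share an alpha-crystallin domain, assemble into oligomers and hold unfolding proteins, among them actin and intermediate filaments, until an HSP70 machine refolds them or they are degraded. Hspb8 pairs with Bag3, which links it to HSP70 and the ubiquitin ligase Stub1 and so directs clients such as filamin to autophagy, a route called chaperone-assisted selective autophagy. Several members are best known from heart, skeletal muscle and lens, and the heat shock factors induce a number of them under stress.

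The values are FPKM, in which the fragments of a gene are divided by its transcript length and by the mapped total, so that levels can be set side by side between genes. Summed FPKM ran between 467255 and 538504. Knockout replicate 2 had the highest and also stood somewhat apart from the other knockout libraries. S100a8 itself was listed at 0 in all 3 knockout libraries, against 3.67, 1.61 and 3.95 FPKM in the control libraries (limma adjusted p = 0.000198, exact two-sided permutation p = 0.1, the smallest that 3 against 3 libraries allow). Of 12 markers of hematopoietic stem and progenitor cells, Ptprc (CD45) and Kit were among those listed at 0 in all 6 libraries, while Ly6a (96.3 ± 16.4 FPKM in knockout and 359.7 ± 9.24 FPKM in control, SD, n = 3 each), Cd34 (33.0 ± 1.07 FPKM in knockout and 56.4 ± 1.43 FPKM in control) and Gata2 (11.3 ± 0.823 FPKM in knockout and 22.7 ± 0.147 FPKM in control) were expressed. In comparison, 12 fibroblast and matrix genes summed to 7005 to 7479 FPKM in knockout and 4601 to 4627 FPKM in control. The markers of the labelled cell type were thus present in part, without Ptprc and Kit. The comparison moved much of the transcriptome, since 5580 of 11112 tested genes passed an adjusted p of 0.05.

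The start regions of 4 members are shown because they hold the same short word of a heat shock element, the DNA motif to which heat shock factors bind. The motif searched was GAANNTTC, which reads the same on both strands, in windows of 250 bases before to 50 bases after each start site in RefSeq (GRCm38.p6). RefSeq held 7 windows for 6 members. A match was found in 5 of these windows, from 5 members, whereas 7.86% of all 32851 windows had one. Hspb1 had 2 matches, at positions -117 and -97 relative to the start, and 0.344% of all windows had at least 2. Hspb6 had a match at -120 of its downstream start and none at its upstream start, Hspb8 had one at position 3, Bag3 at 43 and Hspb3 at -224, and Hspb7 had no match. Capitals mark the matches in the sequences below, each written 5′ to 3′ on the strand of the gene.
Hspb1 (chr5:135887769-135887918, plus strand, positions -150 to -1): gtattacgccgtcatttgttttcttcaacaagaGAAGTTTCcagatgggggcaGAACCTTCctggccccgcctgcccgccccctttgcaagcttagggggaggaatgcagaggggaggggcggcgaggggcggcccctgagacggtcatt
Hspb6 (chr7:30553151-30553300, plus strand, positions -150 to -1): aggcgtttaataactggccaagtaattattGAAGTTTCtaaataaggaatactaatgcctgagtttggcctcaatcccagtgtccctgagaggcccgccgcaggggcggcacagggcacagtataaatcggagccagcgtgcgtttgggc
Hspb8 (chr5:116422855-116423004, minus strand, positions -140 to 10): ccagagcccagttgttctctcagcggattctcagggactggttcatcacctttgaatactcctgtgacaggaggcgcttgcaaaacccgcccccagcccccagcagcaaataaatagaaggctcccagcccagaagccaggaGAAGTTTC
Bag3 (chr7:128523603-128523632, plus strand, positions 21 to 50): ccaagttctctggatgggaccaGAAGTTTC
The word GAAGTTTC, found in each of the 4 sequences, occurred on either strand in 1.21% of all windows. The 4 sequences were chosen for holding this word, so nothing is read from its presence in all of them. These matches describe letters and not binding. As the levels given next show, the genes that share the word lay in different directions: Hspb1 and Hspb8 were higher in knockout, Hspb6 was lower and Bag3 lay at nearly the same level in both groups.

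Taken by level, 4 members were abundant and 3 were low, at percentiles 38.7 (Hspb1), 37.9 (Hspb2) and 34.3 (Hspb7) of mean FPKM over all genes of the table. The knockout means ran in the order Cryab (111.1 FPKM), Bag3 (45.9), Hspb8 (32.2), Hspb6 (24.0), Hspb1 (2.10), Hspb7 (0.707) and Hspb2 (0.657). In the control group the order was Cryab (104.4), Bag3 (44.5), Hspb6 (32.7), Hspb8 (19.0), Hspb2 (1.16), Hspb7 (0.257) and Hspb1 (0.020). Hspb8 and Hspb6 thus changed places between the groups, and Hspb1 was lowest in control but above Hspb2 and Hspb7 in knockout. Among the knockout libraries Hspb2 and Hspb7 overlapped and their order was not separated from the spread. The remaining neighbours did not overlap within a group.

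**Figure D1:**
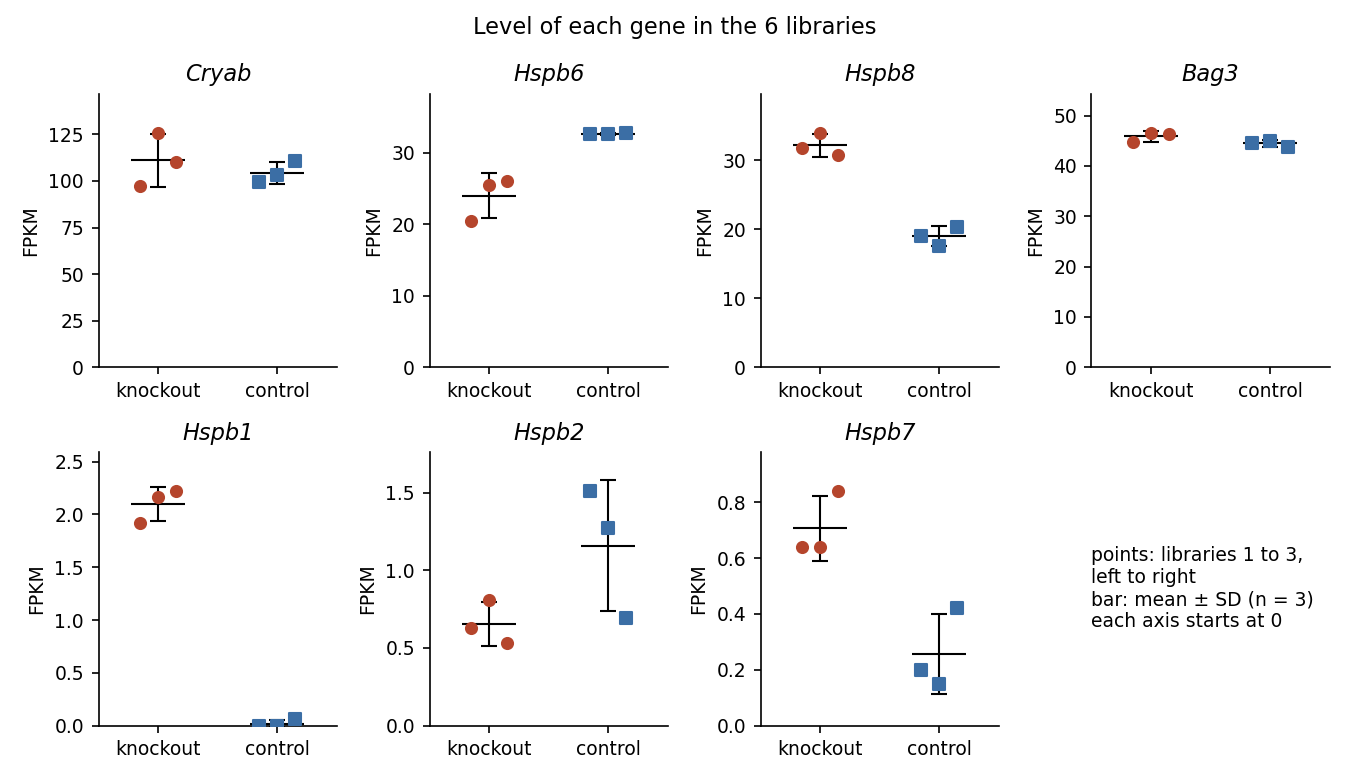
FPKM (vertical axes, each starting at 0) of the 7 genes in the 3 knockout libraries (circles, left) and the 3 control libraries (squares, right), with the mean and SD of each group. Hspb8, Hspb1 and Hspb7 lie higher in every knockout library than in any control library and Hspb6 lies lower, whereas Cryab, Bag3 and Hspb2 overlap.

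Between the groups, 4 of the 7 members did not overlap: Hspb1, Hspb7 and Hspb8 were higher in knockout and Hspb6 was lower. For comparison, 48.5% of the 17453 genes above 0 in any library had groups that did not overlap, 23.1% with knockout higher and 25.4% with knockout lower, and among tested genes alone the share was 60.7%. Because the members were selected on this comparison, nothing is read from their count. The median difference of the 7 members was 0.08 on the log2(FPKM + 1) scale, and that of all tested genes was -0.02. The members' median was 0.17 and 0.03 without knockout replicates 1 and 2, and 0.05 and 0.12 without control replicates 1 and 3. The filter used for testing, a mean of 1 FPKM or more, was met by 5 members and missed by Hspb2 and Hspb7. Lower RNA from fewer expressing cells cannot be told apart from less RNA per cell in such bulk libraries.

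Cryab encodes alpha-B crystallin, which protects desmin and other intermediate filaments and is a main structural protein of the lens. It was read at 97.4, 126.0 and 110.0 FPKM in the knockout libraries, against 99.2, 103.3 and 110.7 FPKM in the control libraries. The groups overlapped, with both the highest and the lowest value in knockout. The difference was 0.08 on the log2(FPKM + 1) scale (SE 0.116, n = 3 each) and was -0.01 without knockout replicate 2, the library with the highest value. Among all 18051 genes its mean level lay at percentile 95.9, so Cryab was strongly expressed although its lens partner Cryaa was listed at 0 in every library.

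Hspb6, also called Hsp20, is known from smooth and cardiac muscle, where it is phosphorylated during relaxation and forms mixed oligomers with other small heat shock proteins. It was read at 20.4, 25.5 and 26.1 FPKM in the knockout libraries, against 32.6, 32.7 and 32.8 FPKM in the control libraries. All knockout libraries lay below all control libraries, and the spread was much wider in knockout (SD 3.14 FPKM) than in control (SD 0.129 FPKM). The knockout mean was 0.735 times the control mean, a difference of -0.44 on the log2(FPKM + 1) scale (SE 0.109, n = 3 each). Under the 15 other settings tried, the difference stayed between -0.50 and -0.33. Of these settings, those that change only the filter, the trend or the block cannot alter the difference of any member. Its neighbour Proser3, which shares sequence with it on the opposite strand, was also lower (4.17 ± 0.372 FPKM in knockout and 6.41 ± 0.211 FPKM in control, SD, n = 3 each, limma adjusted p = 0.000932). The median difference of tested genes on chromosome 7, which carries both, was -0.25. The part of either in the result was not tested.

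Hspb1, called Hsp25 in the mouse, is the classical stress-induced member and caps and stabilises actin filaments. It was read at 1.92, 2.16 and 2.22 FPKM in the knockout libraries, and in the control libraries it was listed at 0 in replicates 1 and 2 and at 0.06 FPKM in replicate 3. Every knockout library thus held a low but steady level, above that of any control library. Absence from the control libraries is not established, since a value of 0 may be a failed estimate and Hspb1 shares sequence with other genes. The difference was 1.60 on the log2(FPKM + 1) scale (SE 0.052, n = 3 each). A smaller pseudocount of 0.1 FPKM gave 4.23, which shows how far the size depends on the scale, and no fold is given against a group listed at or near 0.

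Hspb8 is the member that works with Bag3. It was read at 31.7, 34.0 and 30.8 FPKM in the knockout libraries, against 19.1, 17.6 and 20.4 FPKM in the control libraries. All knockout libraries were higher than all control libraries. The mean was 1.69-fold higher in knockout, a difference of 0.73 on the log2(FPKM + 1) scale (SE 0.072, n = 3 each), and it ran between 0.68 and 0.78 under the 15 other settings. The tested genes of chromosome 5, which carries Hspb8 and Hspb1, had a median difference of 0.04. Bag3, its partner, was read at 44.69, 46.62 and 46.42 FPKM in the knockout libraries, against 44.63, 45.04 and 43.72 FPKM in the control libraries. These values overlapped, and their difference was 0.05 (SE 0.023), with a range of 0.03 to 0.06 over the other settings. Bag3 lies on chromosome 7, whose tested genes had a median difference of -0.25.

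Hspb7, a small heat shock protein of heart and muscle that keeps filamin from aggregating, was read at 0.64, 0.64 and 0.84 FPKM in the knockout libraries, against 0.20, 0.15 and 0.42 FPKM in the control libraries. Each knockout library was higher, at levels under 1 FPKM. The ratio of the means was 2.75 and the difference 0.45 on the log2(FPKM + 1) scale (SE 0.108). Hspb2, known as a binding protein of the myotonic dystrophy kinase and, in muscle, as the partner of Hspb3, was read at 0.63, 0.81 and 0.53 FPKM in the knockout libraries, against 1.51, 1.27 and 0.69 FPKM in the control libraries. Its groups overlapped through control replicate 3, and the difference was -0.36 (SE 0.185). With a pseudocount of 0.1 FPKM these differences became 1.24 for Hspb7 and -0.69 for Hspb2.

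The more distant relatives added little. Hspb9, a testis member, lay between 0.17 and 0.50 FPKM in knockout and between 0.17 and 0.25 FPKM in control. Odf1, a sperm tail protein counted with the family, was above 0 in a single library, knockout replicate 2, at 0.05 FPKM. Hspb11, named with the family but a component of the intraflagellar transport machinery of cilia, was read at 17.6 ± 2.34 FPKM in knockout and 16.9 ± 0.595 FPKM in control (SD, n = 3 each, limma adjusted p = 0.661).

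The make-up of the small heat shock protein pool differed between the groups while its total overlapped. Summed over Hspb1, Hspb2, Hspb6, Hspb7, Hspb8 and Cryab, the level was 170.7 ± 18.2 FPKM in knockout and 157.5 ± 6.62 FPKM in control (SD, n = 3 each). Hspb8 made up 18.9 ± 1.60% of this sum in knockout and 12.1 ± 0.634% in control. Hspb6 made up 14.1 ± 1.10% in knockout and 20.8 ± 0.775% in control, and Cryab 65.0 ± 1.48% in knockout and 66.3 ± 1.08% in control. Within libraries, Hspb8 stood at 0.710, 0.729 and 0.663 of the level of Bag3 in knockout, against 0.427, 0.390 and 0.466 in control. Hspb6 stood at 0.209, 0.203 and 0.237 of the level of Cryab in knockout, against 0.328, 0.316 and 0.297 in control. Neither ratio overlapped between the groups. Both are built from values already described and are no further evidence.

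**Figure D2:**
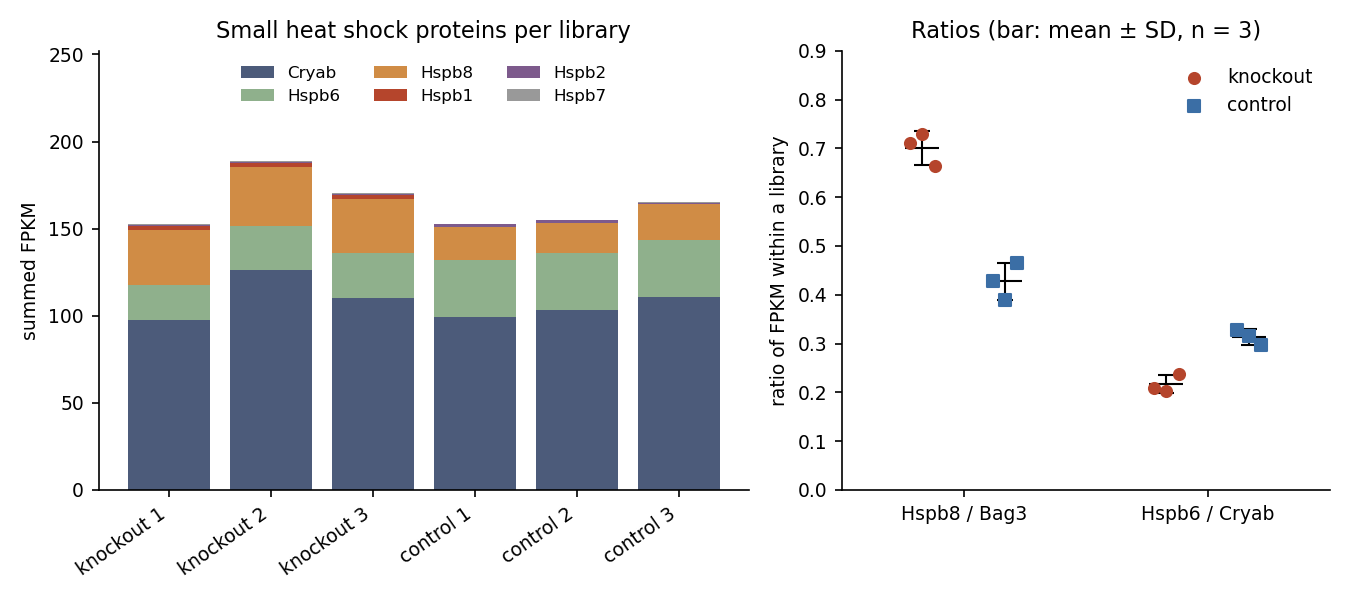
Left, FPKM of the 6 small heat shock proteins stacked for each library (vertical axis from 0), and right, the ratios Hspb8 to Bag3 and Hspb6 to Cryab in knockout (circles) and control (squares) libraries, with mean and SD. The total overlaps between the groups, while Hspb8 to Bag3 is 0.663 to 0.729 in knockout and 0.390 to 0.466 in control.

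Some of these values carry an uncertainty that comes from sequence shared with other genes. Of the 31-base words in the transcripts of Hspb1 (GENCODE M21), 55.4% occur in another gene, mainly Hsp25-ps1, a processed pseudogene on chromosome 13 that repeats 52.3% of them on the same strand. Neither Hsp25-ps1 nor Gm9817, a gene model on the opposite strand there, was among the genes analysed. Reads of Hspb1 and of the pseudogene could have been divided between them, and the low level of Hspb1 is uncertain for that reason. Hspb2 and Cryab lie head to head on chromosome 9 of GRCm38, Hspb2 at 50751078 to 50752354 on the minus strand and Cryab at 50751325 to 50756636 on the plus strand, and their gene models overlap by 1030 bases. The overlap takes in 26.7% of the words of Hspb2 and 14.8% of those of Cryab. Whether strand was used in counting is not stated, so reads of the abundant Cryab could have entered Hspb2, which stood at 0.591 ± 0.0942% of the Cryab level in knockout and 1.12 ± 0.458% in control. Hspb6 shared 6.07% of its words, Hspb7 1.11%, and Hspb8 and Bag3 none.

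**Figure D3:**
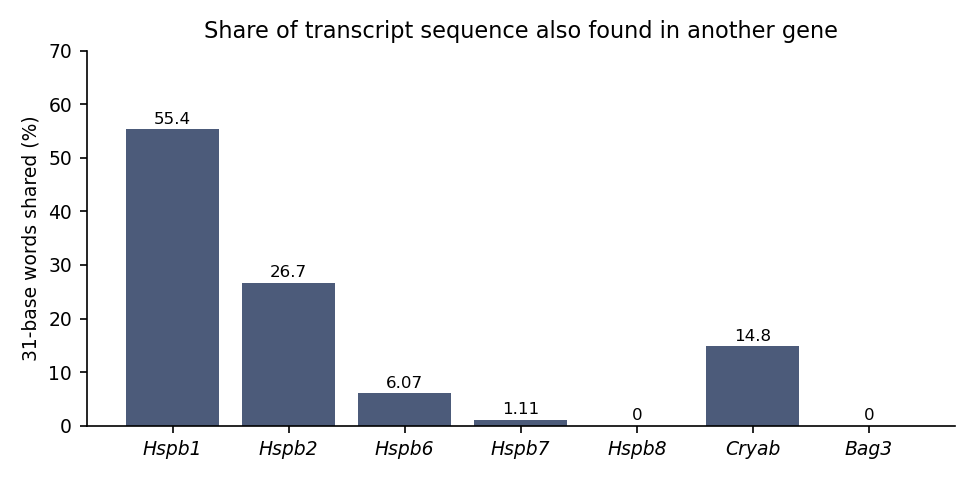
Share of the 31-base words of each gene's annotated transcripts that also occur, on either strand, in a transcript of another gene (percent, vertical axis from 0). Hspb1 (55.4%) and Hspb2 (26.7%) share most, and Hspb8 and Bag3 share none.

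The genes whose pattern over the 6 libraries was closest to those of the most abundant members are given as a description. For Cryab these were Mvb12a, Fam193b and Csnk2b, with Pearson correlations of 0.999, 0.991 and 0.991 over 6 libraries, and 73 of the 11111 other tested genes exceeded 0.95. For Bag3 they included Porcn (0.984) and Ensa (0.974), and 11 genes exceeded 0.95. The 6 points share their libraries and their groups, and with so few of them high values arise for many genes.

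The other chaperone genes were set beside the small heat shock proteins in 8 lists of chaperones and their clients. Of all 11112 tested genes, 50.2% passed the limma test at an adjusted p of 0.05, with 23.6% higher and 26.7% lower in knockout, and each list is read against these shares. Hsf1, the main regulator of the heat shock response, was read at 35.9, 41.2 and 38.4 FPKM in knockout, against 38.7, 39.4 and 39.4 FPKM in control, and did not pass (adjusted p = 0.762). Hsf2, which forms mixed trimers with Hsf1, was higher (12.3 ± 1.35 FPKM in knockout and 9.34 ± 0.0436 FPKM in control, SD, n = 3 each, adjusted p = 0.00943). Hsbp1, which binds heat shock factor trimers and dampens them, was also higher (101.7 ± 12.3 FPKM in knockout and 79.4 ± 2.19 FPKM in control, adjusted p = 0.0122, and 0.0527 without control replicate 2). Hsbp1 is not itself a heat shock factor but was counted in their list. With it, 2 of 3 tested genes of the list were higher, and the count was 1 without control replicate 2.

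The HSP70 family refolds what small heat shock proteins hold. Of its 13 tested genes 7 were higher, 2 were lower and 4 did not pass, with a median difference of 0.15. The stress-induced gene Hspa1a was read at 12.6, 10.6 and 13.7 FPKM in knockout, against 7.63, 7.41 and 7.02 FPKM in control (adjusted p = 0.00075). It is nearly identical in sequence to Hspa1b, so the division of reads between these 2 genes is uncertain. Hspa1b was higher as well (42.8 ± 3.08 FPKM in knockout and 27.6 ± 1.09 FPKM in control, SD, n = 3 each, adjusted p = 0.000202). Hspa12b, an atypical endothelial member, was higher (6.17 ± 0.348 FPKM in knockout and 3.31 ± 0.370 FPKM in control, SD, n = 3 each, adjusted p = 0.000238). Hspa14, a ribosome-associated member, was lower at 0.723 times the control level (adjusted p = 0.000286). Hspa5, the HSP70 of the endoplasmic reticulum, was lower too, at 351.2 ± 10.9 FPKM in knockout and 456.3 ± 18.7 FPKM in control (adjusted p = 0.00289). Hspa14, Hspa5 and Hspa12b lie on chromosome 2, where the median difference of tested genes was -0.20. The part of the chromosome in their levels was not tested. Hspa8, the constitutive HSP70 that Bag3 binds, had the highest level of the list, with 1939, 2255 and 1965 FPKM in knockout against 1620, 1650 and 1661 FPKM in control (adjusted p = 0.0407). Its call was lost when any library other than knockout replicate 2 was left out (adjusted p = 0.0532 to 0.144) and when low genes were kept in the test (adjusted p = 0.1) or the replicate number was a block (adjusted p = 0.0833).

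Nucleotide exchange factors release clients from HSP70, the task that Bag3 shares, and adaptors with other tasks, such as St13 and Stub1, were listed with them. Of 11 tested genes 4 were higher, 1 was lower and 6 did not pass. The largest rises were Sil1 of the endoplasmic reticulum (25.5 ± 3.35 FPKM in knockout and 12.5 ± 0.920 FPKM in control, SD, n = 3 each, adjusted p = 0.000119) and mitochondrial Grpel2 (1.78-fold, adjusted p = 7.77e-05). Both genes lie on chromosome 18, where the median difference of tested genes was 0.37, and its part in these rises was not tested. St13, the Hip protein that steadies HSP70 on its client, was the most abundant of the list and fell to 236.6 ± 4.94 FPKM in knockout, against 278.9 ± 7.53 FPKM in control (adjusted p = 0.0134), a call lost without knockout replicate 3 or control replicates 1 or 2 (adjusted p = 0.0583 to 0.0719). Without knockout replicate 2 the list had 9 genes past the threshold in place of 5.

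In the HSP40 family, the J-domain proteins that hand clients to HSP70, 7 of 35 tested genes were higher, 9 were lower and 19 did not pass, with a median difference of 0.04. Dnajc15 (1.30-fold, adjusted p = 0.00473) and Dnajc18 (1.26-fold, adjusted p = 0.00903) had the largest rises, on chromosomes 14 and 18, whose tested genes had median differences of 0.41 and 0.37. Dnajc24 (0.672 times the control level, adjusted p = 0.0007) and Dnajc25 (0.768 times, adjusted p = 0.0119) had the largest falls. They lie on chromosomes 2 and 4, whose tested genes had median differences of -0.20 and -0.07. Dnajb6, the most abundant, was read at 120.1 ± 2.16 FPKM in knockout and 115.5 ± 1.73 FPKM in control and did not pass (adjusted p = 0.423). The count of 16 genes dropped to 9 without knockout replicate 3 and to 10, 9 and 8 without control replicates 1, 2 and 3.

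HSP90 and its co-chaperones had 6 genes higher, 4 lower and 9 not past among 19 tested, with a median difference of 0.17. Fkbp4, an immunophilin of steroid receptor complexes (1.44-fold, adjusted p = 0.000806), and Ahsa1, which activates the ATPase of HSP90 (1.38-fold, adjusted p = 0.00164), were higher in knockout. Stip1, the Hop protein that joins HSP70 to HSP90, was lower, with 157.6, 152.5 and 151.5 FPKM in knockout against 206.0, 212.8 and 211.4 FPKM in control (adjusted p = 0.000379). Cdc37l1, a relative of the kinase co-chaperone Cdc37, was 0.723 times the control level (adjusted p = 0.0233), and its call was lost without control replicate 1 (adjusted p = 0.0878) or control replicate 3 (adjusted p = 0.0699) and after scaling to a common sum (adjusted p = 0.075). Stip1 and Cdc37l1 lie on chromosome 19, where the median difference of tested genes was -0.22, and Ahsa1 on chromosome 12, with 0.20. The part of the chromosomes in these levels was not tested. Hsp90ab1 itself was read at 1245 ± 72.7 FPKM in knockout and 1231 ± 27.6 FPKM in control (adjusted p = 0.901).

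Among the chaperonins and prefoldins, which fold actin and tubulin, 5 of 16 tested genes were higher, 1 was lower and 10 did not pass. Cct2 (1.26-fold, adjusted p = 0.00346) and Cct7 (1.24-fold, adjusted p = 0.012), both subunits of the cytosolic ring, were higher in knockout, though Cct7 lost its call without control replicate 1 (adjusted p = 0.059). Vbp1, a prefoldin subunit, was lower (0.735 times the control level, adjusted p = 0.00105). Hspe1, the mitochondrial co-chaperonin, was the most abundant and was read at 240.6, 355.9 and 270.2 FPKM in knockout, against 228.8, 248.3 and 260.4 FPKM in control (adjusted p = 0.234). The count of 6 was among the least stable: it was 11 without knockout replicate 2 and also after scaling to a common sum or quantile normalization, 3 without knockout replicate 3, and 2, 3 and 3 without control replicates 1, 2 and 3.

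Chaperone-assisted selective autophagy takes over the clients that Hspb8 and Bag3 deliver. Of 16 tested genes 4 were higher, 5 were lower and 7 did not pass, with a median difference of -0.06. The autophagosome proteins Gabarapl1 (60.3 ± 4.20 FPKM in knockout and 40.9 ± 1.84 FPKM in control, SD, n = 3 each, adjusted p = 0.00036) and Map1lc3b (94.0 ± 11.1 FPKM in knockout and 67.8 ± 1.28 FPKM in control, adjusted p = 0.00273) were higher. Lysosomal membrane proteins went opposite ways: Lamp1 was 1.23-fold higher (adjusted p = 0.0106), a call lost without control replicate 3 (adjusted p = 0.0728), and Lamp2 was lower, at 221.9, 168.5 and 196.7 FPKM in knockout against 316.9, 299.3 and 305.4 FPKM in control (adjusted p = 0.00111). Hdac6, a deacetylase that brings aggregates to the autophagy machinery, was 0.644 times the control level (adjusted p = 0.000198). Lamp2, Hdac6 and Vbp1 lie on chromosome X, where the median difference of tested genes was -0.36. Stub1, the ligase of the Bag3 complex, was read at 104.6, 135.4 and 107.7 FPKM in knockout, against 118.8, 122.3 and 121.9 FPKM in control (adjusted p = 0.582).

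The cytoskeletal proteins that small heat shock proteins protect had 3 genes higher, 1 lower and 2 not past among 6 tested. Vimentin (Vim), the main intermediate filament protein of mesenchymal cells, was read at 2041, 2521 and 2156 FPKM in knockout, against 1439, 1538 and 1480 FPKM in control (adjusted p = 0.00412). Flnc, a filamin and a client of the Bag3 route, was 1.62-fold higher (adjusted p = 0.00234). Acta1, the actin of skeletal muscle, was read at 3.07, 3.92 and 4.18 FPKM in knockout, against 0.29, 0.32 and 0.11 FPKM in control (adjusted p = 5.18e-06). Nes (nestin) was lower at 0.501 times the control level (adjusted p = 1.83e-05). Desmin (Des), the best-known partner of Cryab, was under the filter and was read at 0.10, 0.10 and 0.08 FPKM in knockout, against 1.09, 1.05 and 1.16 FPKM in control, without overlap.

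**Figure D4:**
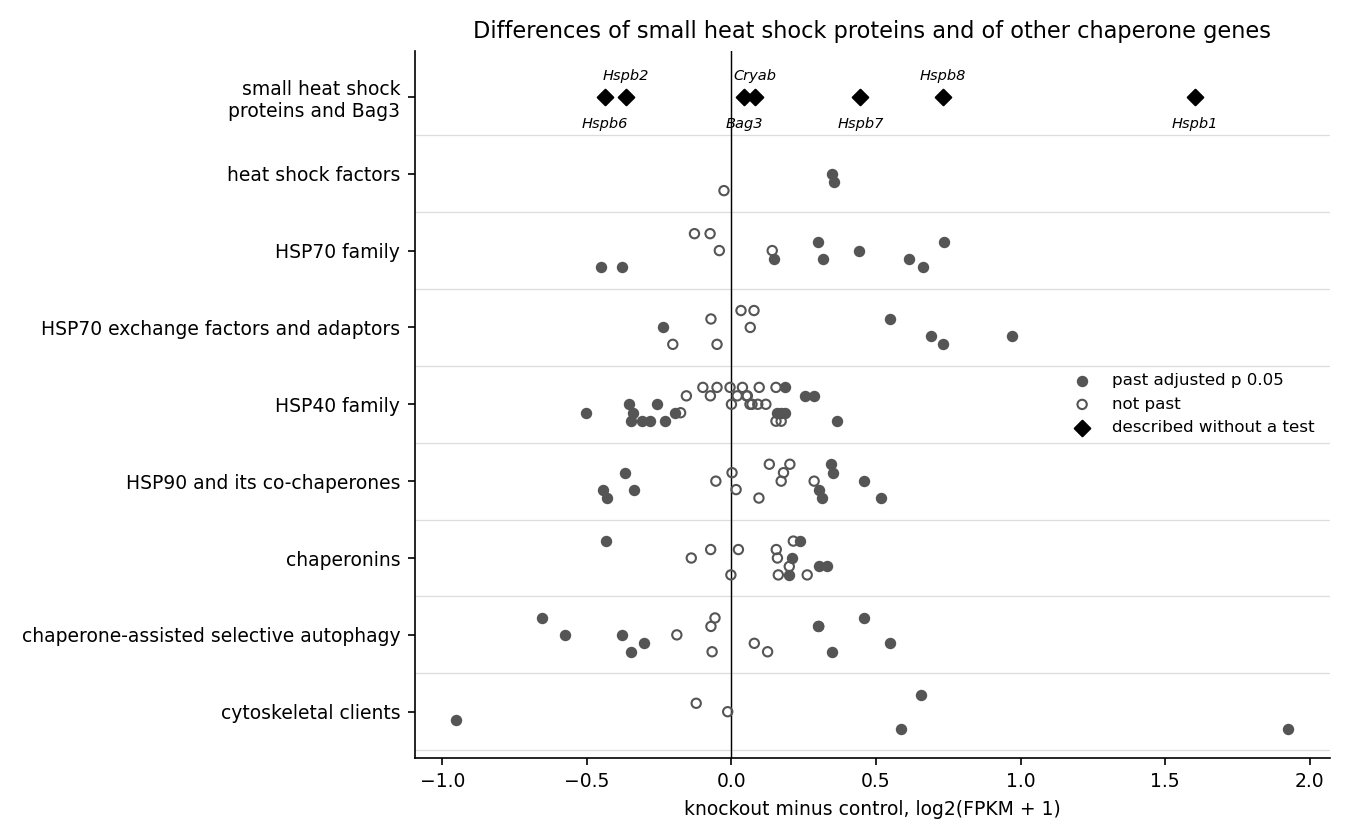
Difference of each gene between knockout and control (horizontal axis, log2(FPKM + 1)), with the 7 members as diamonds and the tested genes of the 8 chaperone and client lists as circles, filled where the limma adjusted p was under 0.05. The members run between -0.44 (Hspb6) and 1.60 (Hspb1), and every list except the heat shock factors has filled circles on both sides of 0.

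Markers of the tissues in which small heat shock proteins are best known moved unevenly with the groups. The counts below stand beside 50.2% of all 11112 tested genes past the threshold, with 23.6% higher and 26.7% lower. Of 7 smooth muscle genes, 4 were higher among 5 tested and none was lower, and they summed to 127.7 to 156.8 FPKM in knockout, against 27.7 to 28.4 FPKM in control. Actg2, the enteric smooth muscle actin, made up much of this, with 66.2, 87.7 and 68.4 FPKM in knockout against 1.03, 1.35 and 1.15 FPKM in control (adjusted p = 2.7e-08). The 13 skeletal and cardiac muscle genes summed to 4.03 to 5.71 FPKM in knockout and 3.56 to 5.54 FPKM in control, and 11 of them had a mean under 1 FPKM. In 2 of them the groups did not overlap, in opposite directions. Tnnt2, under the filter, was lower (0.107 ± 0.0289 FPKM in knockout and 1.36 ± 0.454 FPKM in control, SD, n = 3 each). Myl4 was higher (2.03 ± 0.526 FPKM in knockout and 1.13 ± 0.401 FPKM in control, adjusted p = 0.0361), a call lost without control replicates 1 or 2. The 5 lens genes summed to 0.62 to 0.69 FPKM in knockout and 0.30 to 0.58 FPKM in control. The 12 hematopoietic stem and progenitor genes summed to 141.2 to 166.8 FPKM in knockout, against 443.5 to 462.8 FPKM in control, with 1 gene higher and 4 lower among 6 tested. The 10 neutrophil and monocyte genes summed to 13.8 to 15.2 FPKM in knockout, against 32.4 to 36.5 FPKM in control, with 3 lower among 4 tested, and Cd14, a monocyte receptor for bacterial lipopolysaccharide, stood at 0.353 times the control level (adjusted p = 1.44e-06). Fibroblast and matrix genes, whose sums are given above, had 9 higher and 1 lower among 11 tested. The part of these cell type markers in the levels of Hspb1, Hspb6, Hspb7 and Hspb8 was not tested.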

How the data were processed

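Total RNA of 6 libraries was sequenced (DNBSEQ). HISAT2 2.0.4, Bowtie2 2.2.5 and mm10 are named in the submitters' processing notes, and the study's methods name RSEM. The authors deposited FPKM values per gene to 2 decimals. Reads with adapter or undetermined bases or of low quality were removed first. The annotation, any filter on genes and the use of strand are not given in the sources used here. The low values showed no step of single reads, so the depth of each library is unknown and counting error could not be given. A value of 0 may be a failed estimate.

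FPKM was taken to log2(FPKM + 1), which understates changes at low levels. Genes averaging 1 FPKM or more were tested, knockout against control, with limma 3.58.1 in R 4.3.3 (empirical Bayes with a trend, no covariate) and Benjamini-Hochberg adjustment over all tested genes, with a threshold of 0.05. The procedure was also run on simulated data with independent libraries and few changed genes. That setting differs from these libraries, so the run does not give error rates for them. Standard errors of members come from the spread within each group. Members are described without a test.

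The members and the 8 chaperone and client lists and 6 cell type lists were chosen with earlier results of these data known. Named were all members and their distant relatives, S100a8, in each chaperone or client list the 2 genes that rose most and the 2 that fell most (past the threshold, no overlap) and the most abundant gene, the most abundant cell type markers, adjacent genes, and the 3 genes most correlated with the 2 most abundant members. Some items that this rule or the lists cover are not reported here. Hsf1, Hspa1b, Stub1 and Des were named after their values were seen. The authors' group means, also in FPKM, were not used. The alternatives were 15: other pseudocounts, filters and scalings, no trend, each library left out, and the replicate number as a block. Sequences come from RefSeq (GRCm38.p6, the coordinates of mm10); Cryab and Hspb2 are not shown. Shared sequence was counted in GENCODE M21 transcripts.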

Additional observations from a re-analysis of the deposited data

How the results depend on the processing

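Differences of members were computed without the filter of 1 FPKM, and only the filter of 5 FPKM left members out. Under the 15 alternatives so counted the members kept their sign, except Cryab. Its difference of 0.08 became -0.01 without knockout replicate 2. Alternatives that change only the filter, the trend or the block leave these differences as they are. The median of the members and the level of S100a8 kept their direction. With a mean FPKM of at least 5, 4 members remain and 2 of them do not overlap, since fewer genes are tested. With no filter on low values the cytoskeletal clients had 7 genes past the threshold in place of 4, and the chaperonins had 11 in place of 6 after scaling to a common sum (TPM) and after quantile normalization; the cause was not tested. Leaving out 1 library gave 4282 to 7403 genes past the threshold over the whole table. The list of heat shock factors, which includes Hsbp1, then had 1 to 2. There were also 4 to 9 exchange factors and adaptors, 8 to 20 HSP40 genes and 2 to 11 chaperonins. Same-numbered libraries of the 2 groups deviated together with correlations of 0.33, 0.10 and -0.21, and differently numbered ones with -0.36 to 0.28. With only 3 libraries per group, the deviations within a group depend on each other. These correlations therefore cannot decide whether an equal number marks a shared culture or batch. With the replicate number as a block 5527 genes passed in place of 5580. Of 51 named genes outside the members, 8 lost their call under at least 1 alternative and none turned round. They were Hsbp1, Hspa8, St13, Cdc37l1, Cct7 and Lamp1, the muscle marker Myl4 and 2310030G06Rik, the neighbour of Cryab. Lyz2 and Ywhag, the neighbour of Hspb1, gained a call without knockout replicate 2. Depth is unknown and limits above all Hspb1, Hspb2 and Hspb7, whose FPKM is low.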
